A study of Mus musculus with 18 samples.

Results

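The genes described here encode the Slit ligands, the Robo receptors and the Srgap effectors of one axon guidance pathway. They were taken by gene symbol, in a choice made with earlier results of these data known. *Slit1*, *Slit2*, *Slit3*, *Robo1*, *Robo2*, *Srgap1*, *Srgap2* and *Srgap3* make up 8 of the 23038 gene symbols with a measured RNA abundance. The same symbols own 5 of the 1991 alternative splicing events listed for the *Nova2* knockout, 3 in *Robo2* and 2 in *Slit2*. *Slit1*, *Slit3*, *Robo1*, *Srgap1*, *Srgap2* and *Srgap3* have 0 listed events. All 8 genes passed the filter on low counts in each comparison of abundance.

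RNA-seq was performed on the cortex of 12 mouse embryos of the CD1 background at embryonic day 18.5, and on the midbrain and hindbrain of some of them. The cortex samples form 4 groups of 3 mice: *Nova2-/-* mice (1 to 3), their wild-type littermates (1 to 3), *Nova1-/-* mice (1 to 3) and their wild-type littermates (4 to 6). NOVA1 and NOVA2 are neuronal RNA-binding proteins that bind YCAY tetramers (Y stands for C or T) and control alternative splicing. Both alleles are constitutive nulls, and the *Nova2* allele has an IRES-Cre cassette in place of the first coding exon, so every cell of the embryo carries the mutation. The labels do not tie same-numbered mice to one litter, and the set of litters of a wild type was read from its number, since only wild types 4 to 6 also have midbrain and hindbrain samples, which were taken from *Nova1* litters.

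Slit proteins are large secreted ligands that repel growing axons and migrating neurons. Their receptors, the Robo proteins, are single-pass membrane proteins of the immunoglobulin superfamily, and commissural axons use them to leave and stay away from the midline once they have crossed it. The Slit-Robo GTPase-activating proteins (Srgaps) bind the cytoplasmic tail of Robo, bend membranes through their F-BAR domain and switch off small GTPases. In the forebrain, Slit-Robo signals guide callosal, corticofugal and thalamocortical axons.

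The listed events of *Robo2* and *Slit2* concern 3 cassette exons, whose sequences are shown because they are the RNA segments on which the splicing values below rest. All 3 are coding and a multiple of 3 nt long, so that inclusion adds whole codons. The sequences are from mouse build mm9 and run 5′ to 3′ in the sense of the transcript. Each exon alone is printed in capitals throughout. In the sequence with flanks of 80 nt of intron on either side, only YCAY tetramers are in capitals, in exon and introns alike.

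The first is *Robo2* exon 6b at chr16:73986178-73986189 on the minus strand, a microexon of 12 nt that encodes 4 codons. In the annotation 2 transcripts contain it and 2 skip it. An intron of 29926 nt lies before it, and the intron after it spans 220 nt.
Robo2 exon 6b: TATTTCAAGTCT
Robo2 exon 6b with flanks: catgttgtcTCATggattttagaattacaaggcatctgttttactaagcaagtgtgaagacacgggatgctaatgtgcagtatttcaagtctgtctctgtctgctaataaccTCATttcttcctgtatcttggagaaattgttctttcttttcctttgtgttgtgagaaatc

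The second is *Robo2* exon 21 at chr16:73933291-73933416 on the minus strand. It has 126 nt and 42 codons, and the introns before and after it span 415 nt and 4868 nt. In the annotation 1 transcript contains it and 2 skip it.
Robo2 exon 21: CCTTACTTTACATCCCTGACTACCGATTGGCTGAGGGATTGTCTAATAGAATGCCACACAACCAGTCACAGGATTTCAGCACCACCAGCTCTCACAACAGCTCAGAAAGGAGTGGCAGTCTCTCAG
Robo2 exon 21 with flanks: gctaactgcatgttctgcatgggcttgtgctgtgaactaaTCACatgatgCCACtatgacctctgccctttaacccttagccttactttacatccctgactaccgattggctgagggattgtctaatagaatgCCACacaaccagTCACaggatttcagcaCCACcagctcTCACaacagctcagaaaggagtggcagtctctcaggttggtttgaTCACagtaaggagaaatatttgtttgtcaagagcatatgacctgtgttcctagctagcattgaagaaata

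The third is *Slit2* exon 28b at chr5:48654880-48654906 on the plus strand, with 27 nt and 9 codons. Introns of 3957 nt and 11914 nt lie before and after it. In the annotation 2 transcripts contain it and 6 skip it.
Slit2 exon 28b: CTGCTAATCTGAATGAGGTGGAAAAAG
Slit2 exon 28b with flanks: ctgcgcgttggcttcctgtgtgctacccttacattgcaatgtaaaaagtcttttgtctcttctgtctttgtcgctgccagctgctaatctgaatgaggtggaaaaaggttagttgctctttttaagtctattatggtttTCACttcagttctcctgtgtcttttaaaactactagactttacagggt

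All 3 exons are bounded by the usual AG before and GT after. The tetramers searched were TCAT and TCAC and the same pair with C in the first place, on the transcribed strand and with overlaps allowed. Exon 6b has 2 of them, both TCAT, 1 starting 71 nt upstream of the exon's first base and 1 in the intron after it. Exon 21 has 7, of which 2 lie before the exon, 4 inside it and 1 after it. Exon 28b has 1, a TCAC in the intron after it. At least as many YCAY as around exon 6b were found around 75.2% of the 161 annotated internal exons of 12 nt. The share was 20.8% for exon 21 among the 1723 internal exons of 126 nt, and 96.6% for exon 28b among the 380 internal exons of 27 nt. Of these windows, 91.3%, 96.6% and 96.6% held at least 1 tetramer. The tetramers are matches of letters, so they do not show where NOVA2 was bound. By the paper's rule, listed events already had YCAY in a mapped NOVA binding site on the exon or its neighbouring introns. The counts in these windows are therefore a description and no test of binding. The map of the exons and tetramers shows their positions.

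**Figure D1:**
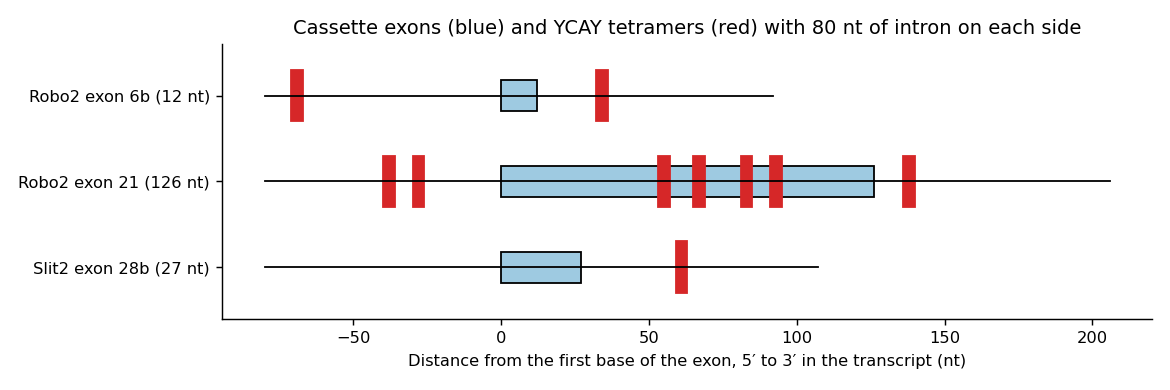
Map of the 3 cassette exons of *Robo2* and *Slit2* (blue boxes), to scale, with 80 nt of intron on each side (black lines) and YCAY tetramers (red bars). The x axis is the distance in nt from the first base of the exon, 5′ to 3′. Exon 21 carries 4 of its 7 tetramers inside the exon, and exons 6b and 28b carry theirs in the introns.

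Inclusion of these exons was compared between wild-type and knockout mice as *Δ*I, the inclusion fraction in wild type minus that in the knockout. A negative *Δ*I therefore means that the exon was included more often in the knockout. The authors deposited 1 value and 1 FDR per event and comparison, made over the mice of a group. Values per mouse, their spread and read depth are therefore not available here. The events were listed for an absolute *Δ*I of at least 0.1 and an FDR below 0.1 in *Nova2-/-* cortex. By the paper, they also had to hold YCAY in a mapped NOVA binding site on the exon or its neighbouring introns. Their values in *Nova2-/-* cortex therefore describe the exons and test nothing. The values in *Nova1-/-* cortex and in *Nova1-/-* midbrain and hindbrain did not enter that choice. Apart from RNA-seq, the paper measured the same exons by RT-PCR in replicate cortices. It reported significant changes for all of them in *Nova2-/-* cortex and none in *Nova1-/-* cortex.

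*Robo2* exon 6b was included more in *Nova2-/-* cortex, with a *Δ*I of -0.430 (FDR = 8.49e-57). Of the 941 listed cassette exons, 158 (16.8%) had a larger absolute *Δ*I. In *Nova1-/-* cortex its *Δ*I was -0.0497 (FDR = 0.713). In *Nova1-/-* midbrain and hindbrain it was -0.152 (FDR = 1.53e-06), a value exceeded in size by 58 of the 941 cassette exons (6.2%). The 3 values have the same sign, and the microexon is the only listed exon of the Slit, Robo and Srgap genes that passed both thresholds in a *Nova1-/-* tissue.

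*Robo2* exon 21 moved the other way in *Nova2-/-* cortex, where it was included less. It is listed in 2 entries with the same flanking exons and *Δ*I of 0.167 (FDR = 3.07e-08) and 0.171 (FDR = 2.91e-08). In *Nova1-/-* cortex the entries stood at -0.0163 and -0.0166 (FDR = 0.961 for both). In *Nova1-/-* midbrain and hindbrain they stood at 0.0608 and 0.0381 (FDR = 0.456 for both). Neither *Nova1-/-* tissue thus passed a threshold for this exon. The receptor gene *Robo2* therefore carried exons of both signs in the same *Nova2-/-* samples, 12 nt more often included and 126 nt less often included.

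*Slit2* exon 28b, in the transcript of a ligand, was included less in *Nova2-/-* cortex. Its 2 entries had a *Δ*I of 0.233 (FDR = 0.00482) and 0.302 (FDR = 0.00233). In *Nova1-/-* cortex they had -0.0589 (FDR = 0.962) and -0.0649 (FDR = 0.961). In *Nova1-/-* midbrain and hindbrain the values were -0.0166 and -0.0192 (FDR = 0.996 for both). The FDR of this exon in *Nova2-/-* cortex was larger than those of the *Robo2* exons, and its sign in *Nova1-/-* tissues was the opposite of that in *Nova2-/-* cortex, with no value past a threshold there. The first entries of exons 21 and 28b and the entry of exon 6b do not give exon positions in the table, and their exon was taken from the annotation. For exons 21 and 28b, 1 other annotated exon lies between the same flanking exons.

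Across both *Nova1-/-* comparisons, 0 of the 5 entries passed both thresholds in cortex, where 0.907% of the 1984 events with a value did. In midbrain and hindbrain 1 of the 5 did, where 5.98% of the 1991 events did. The 5 entries stand for 3 exons, and entries of 1 exon are not independent of each other. The bar plot of *Δ*I shows each entry.

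**Figure D2:**
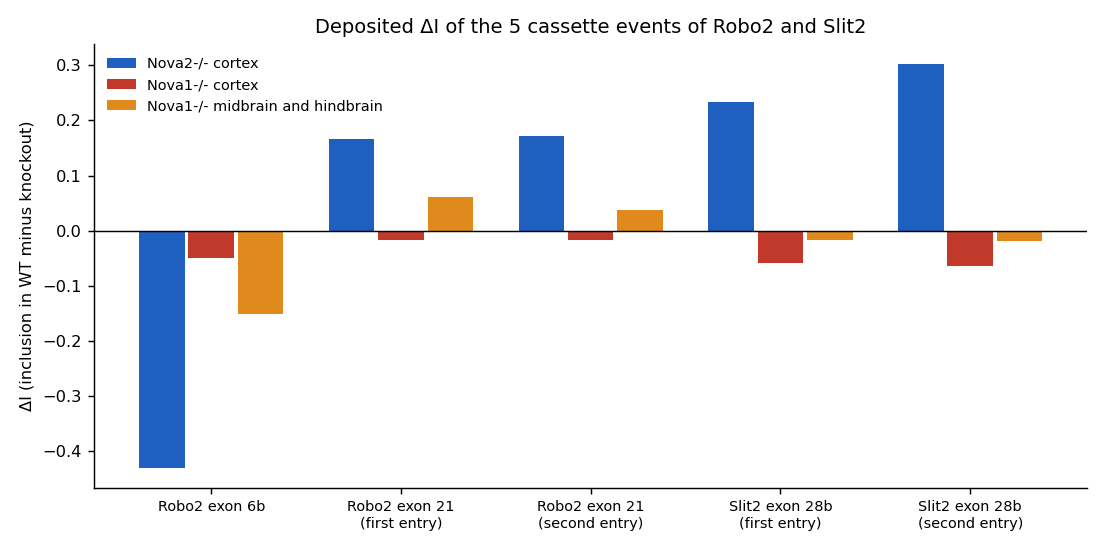
*Δ*I (y axis, inclusion in wild type minus inclusion in the knockout) of the 5 listed cassette entries of *Robo2* and *Slit2*, with 1 bar for each of *Nova2-/-* cortex (blue), *Nova1-/-* cortex (red) and *Nova1-/-* midbrain and hindbrain (orange). Bars are single deposited values without error. Exon 6b falls to -0.430 in *Nova2-/-* cortex and to -0.152 in *Nova1-/-* midbrain and hindbrain, and the other *Nova1-/-* bars lie between -0.0649 and 0.0608.

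The abundance of the transcripts was taken from expected counts per gene, which summed to between 16518172 and 31362018 per cortex. CPM (counts scaled to a common library total) were computed with TMM factors, which correct for a few very abundant genes. *Nova1* was nearly absent from *Nova1-/-* cortex, with 0.0341 to 0.211 CPM against 41.5 to 75.8 CPM in wild types 4 to 6 (log2 fold change = -9.06, adjusted p = 7.94e-07). *Nova2*, of which only the first coding exon is replaced, stood at 17.0 to 21.5 CPM in *Nova2-/-* cortex against 31.0 to 40.9 CPM in wild types 1 to 3 (log2 fold change = -0.87, adjusted p = 0.0373). Adjusted p here and below refers to edgeR's quasi-likelihood test, with values adjusted by Benjamini-Hochberg over all genes tested. Wild type 2 had the lowest total of counts (16518172) and yet the most genes with a count, 21791, against 18397 to 19396 in the other cortices. *Tbr1*, a marker of deep-layer cortical neurons, was present in every group, with means of 78.0 to 89.8 CPM. The 15 markers of the membranes that cover the brain (meninges) summed to 238, 308 and 611 CPM in wild types 1 to 3, the highest in wild type 3, against 948 to 1117 CPM in *Nova2-/-* mice, 858 to 1074 CPM in wild types 4 to 6 and 737 to 873 CPM in *Nova1-/-* mice. None of the 15 was at 0 in any cortex. Since the samples are bulk tissue, fewer cells of a type and less RNA per cell cannot be told apart.

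Among the 8 genes, the receptors had the highest levels per kb of exon. In the 6 wild-type cortices, the median was 39.7 CPM per kb for *Robo1* and 36.8 for *Robo2*. The effectors followed with 33.9 for *Srgap2* and 23.4 for *Srgap3*. The next were the ligand *Slit1* with 14.8 and the effector *Srgap1* with 10.9. *Slit2* and *Slit3* were lowest, with 4.60 and 2.78 CPM per kb. Per kb, *Robo1* stood above *Robo2* in 12 of 12 cortices and *Robo2* above *Srgap2* in 10 of 12. The ranges of the wild types nevertheless overlapped for both pairs. *Srgap3* and *Slit1*, and *Slit1* and *Srgap1*, also overlapped between mice. The ranges per kb were separate between *Srgap2* and *Srgap3*, between *Srgap1* and *Slit2*, and between *Slit2* and *Slit3*. Exon lengths were those of the mm9 annotation, 5.92 kb for *Slit1* to 16.5 kb for *Robo2*, with 9.55 kb for *Robo1* and 15.1 kb for *Slit2*. A different annotation may have been used for the counts. The order depends on these lengths. In CPM not divided by length, *Robo2* stood above *Robo1* in each cortex. Their means were 582 and 363 CPM in wild types of *Nova2* litters, and 619 and 395 CPM in those of *Nova1* litters. *Slit1* and *Slit2* had means of 68.1 and 65.9 CPM in the former wild types, and 99.7 and 70.8 CPM in the latter.

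The first comparison asks whether loss of NOVA2 changed the abundance of these transcripts. All 8 had a higher mean in *Nova2-/-* cortex, and none passed the test: 0 of 8 had an adjusted p below 0.05, where 1.06% of the 15691 genes tested did. Before adjustment 3 of 8, *Robo1*, *Srgap1* and *Srgap2*, had a p below 0.05, where 19.2% of all genes tested had one. DESeq2 also called 0 of 8, and 5.39% of all genes. The same 3 genes were those whose *Nova2-/-* and wild-type mice did not overlap, as held for 25.9% of all genes tested. The median log2 fold change of the 8 was 0.18, against 0.0092 over all genes tested.

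Of the ligands, *Slit1*, which is made mainly in the nervous system, measured 58.9, 63.1 and 82.3 CPM in wild types 1 to 3 and 70.8, 73.3 and 106 CPM in *Nova2-/-* mice 1 to 3. The groups overlapped, and the highest mouse of each stood well above its other two. The fold was 1.23 with a 95% interval from 0.921 to 1.63 (log2 fold change = 0.29, SE = 0.18, adjusted p = 0.416). *Slit2*, the ligand whose transcript carries exon 28b, measured 61.1, 57.6 and 78.9 CPM in wild type and 72.0, 62.8 and 84.3 CPM in *Nova2-/-*. These groups overlapped too (log2 fold change = 0.15, SE = 0.15, adjusted p = 0.612), so that no change of abundance was detectable for the ligand with the listed exon, with an interval of the fold from 0.882 to 1.40. *Slit3*, the least abundant of the 8, measured 14.8, 15.4 and 17.3 CPM in wild type and 14.9, 15.5 and 21.6 CPM in *Nova2-/-* (log2 fold change = 0.13, SE = 0.16, adjusted p = 0.695). Without *Nova2-/-* mouse 3, the direction of *Slit3* turned to a log2 fold change of -0.061. The other ligands also hung on single mice: without *Nova2-/-* mouse 3 the log2 fold change was 0.078 for *Slit1* and 0.031 for *Slit2*, and without wild type 3 it was 0.45 and 0.30.

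Of the receptors, *Robo1* measured 358, 359 and 371 CPM in wild types 1 to 3 and 415, 424 and 409 CPM in *Nova2-/-* mice 1 to 3. The groups did not overlap, and the SD within a group was 6.84 CPM in wild type and 7.62 CPM in *Nova2-/-*. The fold was 1.15 with a 95% interval from 1.05 to 1.26 (log2 fold change = 0.20, SE = 0.058, adjusted p = 0.126). *Robo2*, the receptor whose transcript carries exons 6b and 21, measured 600.2, 609.6 and 536 CPM in wild type and 623, 646 and 596 CPM in *Nova2-/-*. The groups overlapped because wild types 1 and 2 were above *Nova2-/-* mouse 3, and the fold was 1.07 with an interval from 0.951 to 1.21 (log2 fold change = 0.10, SE = 0.075, adjusted p = 0.516). The *Δ*I of its exons above thus came with a difference in gene abundance that was not detectable here.

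Of the effectors, *Srgap1* measured 75.1, 82.4 and 96.6 CPM in wild types 1 to 3 and 102, 114 and 102 CPM in *Nova2-/-* mice 1 to 3. The groups did not overlap, and its fold of 1.25, with an interval from 1.07 to 1.47, was the highest of the 8 (log2 fold change = 0.32, SE = 0.10, adjusted p = 0.148). *Srgap2*, which controls the branching of migrating neurons and the maturation of spines, measured 249, 255 and 291 CPM in wild type and 294, 316 and 302 CPM in *Nova2-/-*. These groups were apart by the short distance between wild type 3 and *Nova2-/-* mouse 1 (log2 fold change = 0.20, SE = 0.075, adjusted p = 0.205). *Srgap3* measured 151, 165 and 219.5 CPM in wild type and 185, 192 and 219.6 CPM in *Nova2-/-* (log2 fold change = 0.16, SE = 0.14, adjusted p = 0.574). Wild type 3 was the highest wild type for all 3 effectors and, for *Srgap3*, level with the highest *Nova2-/-* mouse.

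With each mouse left out in turn, genes of the 8 passed only without wild type 3. Without it, 4 of 8 had an adjusted p below 0.05, *Robo1* (log2 fold change = 0.21, adjusted p = 0.0441), *Srgap1* (0.43, adjusted p = 0.0137), *Srgap2* (0.27, adjusted p = 0.0234) and *Srgap3* (0.33, adjusted p = 0.0488). In that fit 9.03% of all genes tested had one. Without any other mouse 0 of 8 had one. When all 12 cortices shared one fit, 1 of 8 did, *Robo1* (log2 fold change = 0.19, adjusted p = 0.0368), where 8.23% of all genes did. Wild type 3 is also the wild type of the *Nova2* litters with the highest summed meningeal markers. Meningeal markers moved with the genotype in these litters: 15 of 15 had a higher mean in *Nova2-/-*, with a median log2 fold change of 1.34, and 4 passed the test, *Dcn* (1.34, adjusted p = 0.0419), *Col1a1* (1.50, adjusted p = 0.0477), *Ogn* (1.12, adjusted p = 0.0377) and *Cldn11* (1.76, adjusted p = 0.00977). Their part in the values of the 8 genes was not tested. The 8 markers of endothelial and mural cells summed to 216 to 273 CPM in wild type and 317 to 333 CPM in *Nova2-/-*, and 1 of them, *Kdr*, passed the test (log2 fold change = 0.78, adjusted p = 0.0239). The 10 cortical neuron markers summed to 1128 to 1301 CPM and 1145 to 1312 CPM, with a median log2 fold change of -0.0048. The 6 cortical progenitor markers summed to 449 to 483 CPM in wild type and 546 to 595 CPM in *Nova2-/-*, with no overlap. Of these 5 had a higher mean, 0 passed the test in edgeR, 2 had an unadjusted p below 0.05, and the lowest adjusted p was that of *Vim* (log2 fold change = 0.34, adjusted p = 0.0556). *Vim* alone averaged 256 CPM in wild type and 324 CPM in *Nova2-/-*, so it weighed most in the sums. The log2 fold changes of the 6 ranged from -0.095 to 0.39, with a median of 0.18. No share over all genes was computed for the overlap of sums. The part of these other markers in the values of the 8 genes was not tested either.

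**Figure D3:**
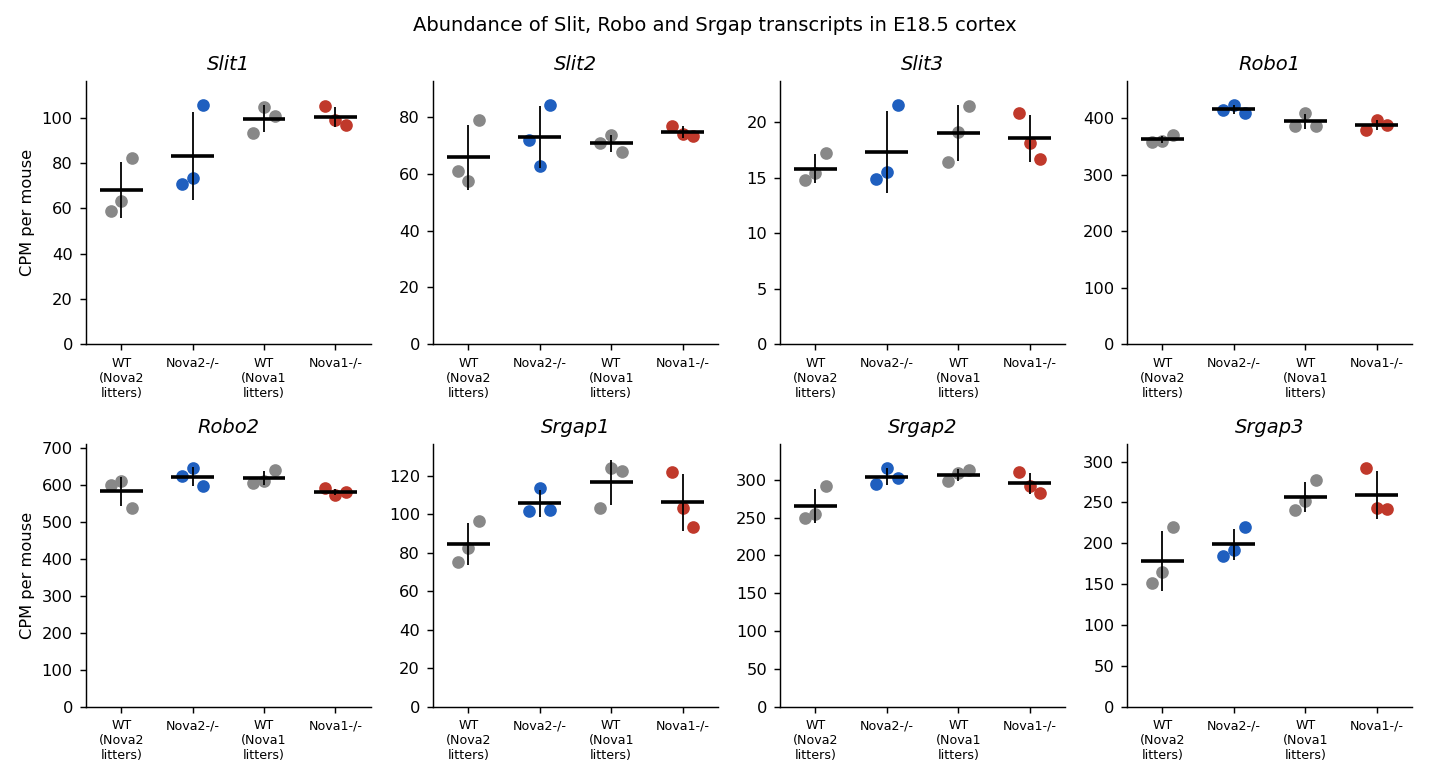
Abundance of the 8 transcripts in cortex (y axes, CPM, starting at 0), with 1 point per mouse, horizontal lines at the mean and vertical lines for 1 SD (n = 3) in the 4 groups: wild type of *Nova2* litters, *Nova2-/-*, wild type of *Nova1* litters and *Nova1-/-*. *Robo1*, *Srgap1* and *Srgap2* have separate points between the first 2 groups. These same genes, and also *Slit1* and *Srgap3*, have all points of the first wild types below those of the second.

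In *Nova1-/-* cortex the 8 transcripts stayed closer to their wild types. Again 0 of 8 had an adjusted p below 0.05, where 0.0126% of the 15901 genes tested did, 0 of 8 had an unadjusted p below 0.05, where 7.44% did, and DESeq2 called 0 of 8 and 0.214% of all genes. Adjusted p ranged from 0.703 to 0.981. The log2 fold changes ranged from -0.14 for *Srgap1* to 0.08 for *Slit2*, 3 of 8 were above 0, and the median was -0.031, against 0.0018 over all genes tested. The log2 fold changes of the meningeal markers were below 0 for 15 of 15, with a median of -0.22, and 0 of 15 passed the test.

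*Robo2* measured 606, 610 and 641 CPM in wild types 4 to 6 and 590.3, 572 and 579.9 CPM in *Nova1-/-* mice 1 to 3. It was the 1 gene of the 8 whose groups did not overlap, as held for 13.4% of all genes tested, and its fold was 0.938 with an interval from 0.872 to 1.01 (log2 fold change = -0.09, SE = 0.048, adjusted p = 0.703). *Robo1* measured 387, 410.5 and 387 CPM in wild type and 379.9, 397 and 389 CPM in *Nova1-/-*. *Srgap1* measured 103, 124 and 122.5 CPM in wild type and 122.2, 103 and 93.4 CPM in *Nova1-/-*, a wide overlap (log2 fold change = -0.14, SE = 0.098, adjusted p = 0.806). The ligands were at 93.2 to 105 CPM for *Slit1*, 67.8 to 73.7 CPM for *Slit2* and 16.5 to 21.5 CPM for *Slit3* in wild type. In *Nova1-/-* mice they were at 96.8 to 105 CPM, 73.3 to 77.1 CPM and 16.7 to 20.9 CPM. The other effectors were at 298 to 313 CPM for *Srgap2* and 241 to 277 CPM for *Srgap3* in wild type. In *Nova1-/-* mice they were at 283 to 311 CPM and 241 to 293 CPM.

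How far the change in *Nova2-/-* exceeded that in *Nova1-/-* was tested directly over all 12 cortices. It was above 0 for 8 of 8 and passed for 0 of 8 in edgeR, where 1.83% of the 16210 genes tested passed. Before adjustment 18.2% of all genes had a p below 0.05, and 3 of 8 did: *Robo1* (log2 difference = 0.21, SE = 0.071, adjusted p = 0.133), *Srgap1* (0.45, SE = 0.16, adjusted p = 0.145) and *Srgap2* (0.24, SE = 0.090, adjusted p = 0.167). DESeq2 called 1 of 8, *Robo1* (0.22, adjusted p = 0.0331), and 5.25% of all genes. Without wild type 3, edgeR called 2 of 8, *Srgap1* (0.56, adjusted p = 0.0361) and *Srgap2* (0.32, adjusted p = 0.0236), where 6.15% of all genes passed. Of the 15 meningeal markers, 15 were above 0 in this difference and 7 passed, and their part in the values of the 8 genes was not tested. This comparison shares its *Nova2-/-* mice and wild types 1 to 3 with the one above.

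The wild types of both sets of litters differed from each other for several of these genes. Wild types 1 to 3 had a lower mean than wild types 4 to 6 for 8 of 8, with a median log2 difference of -0.23, against 0.0019 over all genes tested. In edgeR 0 of 8 had an adjusted p below 0.05, where 3.03% of the 15918 genes tested did, while 4 of 8 had an unadjusted p below 0.05, where 21.1% did. The groups did not overlap for 5 of 8, as held for 26.9% of all genes. DESeq2 called 3 of 8, *Slit1*, *Srgap1* and *Srgap3*, and 8.37% of all genes.

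*Slit1* stood at 93.2, 105 and 101 CPM in wild types 4 to 6, all above the 58.9 to 82.3 CPM of wild types 1 to 3 (log2 difference = -0.55, SE = 0.12, adjusted p = 0.0504). *Srgap3* stood at 241, 251 and 277 CPM, above 151 to 219.5 CPM (log2 difference = -0.52, SE = 0.13, adjusted p = 0.0648). *Srgap1* showed the same order (log2 difference = -0.46, SE = 0.11, adjusted p = 0.0590), and so did *Srgap2* (log2 difference = -0.21, SE = 0.074, adjusted p = 0.154). The difference was smaller for *Robo1* (log2 difference = -0.12, adjusted p = 0.294), *Slit2* (-0.10, adjusted p = 0.675) and *Robo2* (-0.09, adjusted p = 0.546), and stood at -0.26 (adjusted p = 0.274) for *Slit3*. Without wild type 3, 5 of 8 passed, *Slit1* (log2 difference = -0.71, adjusted p = 8.07e-05), *Slit2* (-0.25, adjusted p = 0.0250), *Srgap1* (-0.57, adjusted p = 0.000956), *Srgap2* (-0.28, adjusted p = 0.00410) and *Srgap3* (-0.70, adjusted p = 6.04e-05), where 22.3% of all genes passed. Meningeal markers were lower in wild types 1 to 3 for 15 of 15, with a median log2 difference of -1.13, and 5 passed, *Dcn*, *Col1a2*, *Col3a1*, *Ogn* and *Cldn11*. Their part in these differences was not tested, and litter set cannot be told apart from anything else that differed between the 2 sets. Wild types 1 to 3 are also the controls of *Nova2-/-*, so their low values enter both comparisons with opposite sign. Set beside wild types 4 to 6 of the other litters, with no test, the CPM of *Nova2-/-* mice overlapped the wild-type range for *Srgap1* (102 to 114 against 103 to 124) and *Srgap2* (294 to 316 against 298 to 313). For *Robo1* 2 of the 3 *Nova2-/-* mice lay above that range (409 to 424 against 387 to 410.5), and for *Srgap3* all 3 lay below it (185 to 219.6 against 241 to 277). *Slit1* in *Nova2-/-* mice stood at 70.8, 73.3 and 106 against 93.2 to 105. The ranges also overlapped for *Slit2* (62.8 to 84.3 against 67.8 to 73.7), *Slit3* (14.9 to 21.6 against 16.5 to 21.5) and *Robo2* (596 to 646 against 606 to 641).

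**Figure D4:**
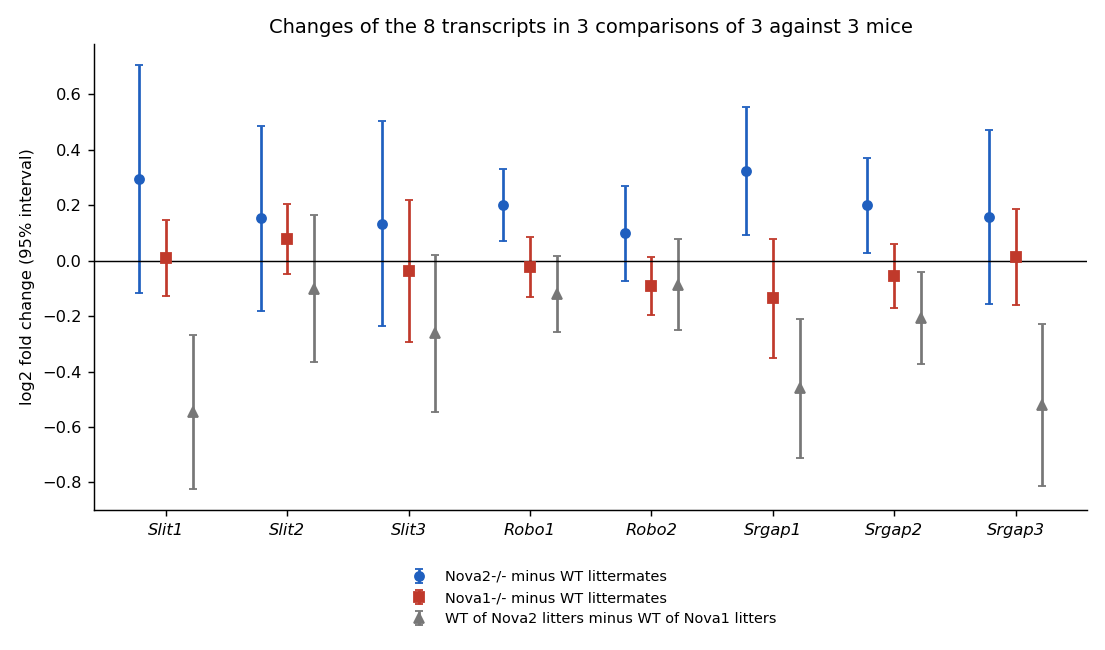
log2 fold changes (y axis) of the 8 transcripts with 95% intervals from edgeR's fit, for *Nova2-/-* minus wild-type littermates (blue circles), *Nova1-/-* minus wild-type littermates (red squares), and wild types of *Nova2* litters minus wild types of *Nova1* litters (grey triangles), with 3 mice per group. Blue points lie between 0.10 and 0.32, red points between -0.14 and 0.08, and grey points between -0.55 and -0.09. Blue and grey points share wild types 1 to 3.

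The 8 genes are long, spanning 143 kb (*Slit1*) to 587 kb (*Slit3*) of mm9. Genes of 100 kb or more outside the 8, a split added after the data had been seen, had in *Nova2-/-* cortex a median log2 fold change of 0.046 (58.6% of 2227 higher), against 0.0020 for shorter genes. Between the wild types their median was -0.058 (39.4% higher), against 0.014 for shorter genes. In *Nova1-/-* cortex it was -0.012, against 0.0037 for shorter genes. In each of these comparisons the median of the long genes had the same sign as that of the 8 genes and was smaller in size.

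Further genes of the pathway were examined as 3 lists with 49 genes in all, each of which passed the filter on low counts. In *Nova2-/-* cortex 0 of 49 passed the edgeR test, 9 had an unadjusted p below 0.05 (19.2% of all genes did), DESeq2 called 1, and the median log2 fold change was 0.055. By list, 0 of 11 other receptors and ligands passed (2 at an unadjusted p below 0.05, median 0.20), as did 0 of 8 heparan sulphate proteoglycans and their enzymes (0, median -0.070), which hold Slit near Robo, and 0 of 30 cytoplasmic partners (7, median 0.047). The 3 genes with the lowest p were *Clasp2*, a microtubule-binding partner downstream of Abl kinase, with 817 to 968 CPM in wild type and 1055 to 1125 CPM in *Nova2-/-* (log2 fold change = 0.30, SE = 0.078, adjusted p = 0.106), *Dcc*, a netrin receptor that Robo can silence (0.29, SE = 0.088, adjusted p = 0.140), and *Pfn2*, an actin-binding profilin (-0.23, SE = 0.071, adjusted p = 0.146). In *Nova1-/-* cortex 0 of 49 passed, 1 had an unadjusted p below 0.05 (7.44% of all genes did), DESeq2 called 0, and the median was -0.038. *Rock2*, *Pak2* and *Pfn1* had the lowest p, each with a log2 fold change of -0.11 and adjusted p of 0.656, 0.672 and 0.743. For the difference between the knockouts, 0 of 49 passed in edgeR, 11 had an unadjusted p below 0.05 (18.2% of all genes did), and DESeq2 called 1. *Clasp2* (0.34, adjusted p = 0.0808), *Pfn2* (-0.28, adjusted p = 0.172) and *Cdc42* (-0.26, adjusted p = 0.175) were the lowest. Between the wild types 1 of 49 passed in edgeR, *Prkca*, a protein kinase C, which was higher in wild types 1 to 3 (log2 difference = 0.59, adjusted p = 0.0287), followed by *Rock1* (-0.29, adjusted p = 0.0553) and *Nck2* (0.32, adjusted p = 0.0571).

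Of these 49 genes, 5 have splicing events listed under their symbol, 20 in all: 7 in *Clasp1*, 6 in *Pak3*, 5 in *Clasp2*, and 1 each in *Dcc* and *Rock1*. *Enah*, a cytoplasmic partner, has none under its symbol, although the paper names it among the genes with NOVA2 target events. This conflict was not resolved. The absolute *Δ*I in *Nova2-/-* cortex was highest for *Clasp2* (0.560). The median of the 20 was 0.189 and that of the 5 entries of *Robo2* and *Slit2* 0.233, against 0.223 over all listed events. In *Nova1-/-* cortex 0 of the 20 passed both thresholds, where 0.907% of all events with a value did. In midbrain and hindbrain 2 did, where 5.98% of all events did. Both are entries of *Clasp1* over the same span (*Δ*I of -0.131 and -0.135), so they are not independent of each other.

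The genes whose pattern over the 12 cortices was most like that of each of the 8 were found by the root mean square difference of centred log2 CPM among 16210 genes. *Slit1* was nearest to *Ncam1* (0.0627) and *Crebbp*, *Slit2* to *Cacnb2* and *Trps1*, and *Slit3* to *Nlgn2* and *Cry2*. *Ganab* was among the 2 nearest to *Robo1*, and *Robo2* was nearest to *Bdp1* and *Prkag2*. *Srgap1* was nearest to *Inpp4a* and *Wdfy3*, *Srgap2* to *Ntrk3* (0.0306) and *Lrrc7*, and *Srgap3* to *Hnrnpul2* and *Csmd1*. None of the 8 was among the 2 nearest genes of another. These distances ranged from 0.0306 to 0.0769 on the log2 scale, while the SD of the 8 genes themselves over the mice ranged from 0.0743 for *Robo2* to 0.301 for *Slit1*.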

How the data were processed

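Total RNA was depleted of ribosomal RNA and sequenced as paired-end reads. Reads were aligned by the authors with OLego (mm10). They deposited expected counts per gene symbol, not normalized, for the 12 cortices. The counting program and annotation are not given in the sources used here. The log2 fold changes and FDR (p-values) for each gene in the deposited table are results of the authors' own edgeR comparisons and were not used. For splicing the authors deposited *Δ*I, an inclusion difference between -1 and 1, with FDR p-values, per event, in mm9 coordinates. Starts of spans were read as counted from 0, since 87.8% matched an annotated exon start with 1 added. RNA abundance outside the cortex was not analysed here.

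Expected counts were rounded and tested in edgeR 4.0.16 (R 4.3.3; filterByExpr, TMM, quasi-likelihood test, Benjamini-Hochberg adjustment over all genes, threshold 0.05), after a test on simulated data. Each knockout was fitted with its own wild types, and the difference between the knockouts on all 12 cortices. Errors are SE of the fit or SD over 3 mice. Genes, exons and sequences came from the mm9 genome and GENCODE vM1, in which no exon of another gene overlaps the exons of the 8. Python 3.11.15 with pandas 2.3.3 and matplotlib 3.10.9 was used for events and figures.

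Alternatives were other filters (none, or 10 counts in every sample), RLE and upper-quartile normalization, DESeq2 1.42.0, a log2 fold change of at least 1, one fit of all 12 cortices, a replicate block, each mouse left out in turn, and other limits for events. Besides the 8 genes and their events, pathway genes were named if their adjusted p was below 0.05 or, with fewer than 3 of these, for the 3 with the lowest p. Pathway genes with listed events, *Enah*, the knocked-out genes and the 2 nearest genes in pattern were named too. Marker genes were chosen by the same rule, but not all that it selects are named. *Tbr1* was named outside the rule, for its presence in every group. The 8 genes, lists and tests were chosen with earlier results of these data known. Nothing in the labels says that replicates come from separate litters. The p-values weigh differences against the variation between these mice, which may not cover the variation between litters. One gene near *Robo1* in pattern and some marker genes are not reported here by name.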

Additional observations from a re-analysis of the deposited data

How the results depend on the processing

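The log2 fold changes of the 8 genes kept their direction and their side of the threshold in 395 of the values under an alternative, newly passed in 19 and turned direction in 10, each with 1 mouse left out. With each mouse left out in turn, the values of the genes that turned ranged from -0.061 to 0.23 for *Slit3* in *Nova2-/-*, in *Nova1-/-* from -0.034 to 0.055 for *Slit1*, -0.13 to 0.063 for *Slit3*, -0.040 to 0.0091 for *Robo1* and -0.081 to 0.072 for *Srgap3*, and in the difference between the knockouts from -0.038 to 0.22 for *Slit2* and -0.015 to 0.27 for *Slit3*. With each mouse left out, genes of the 8 called numbered 0 to 4 in *Nova2-/-*, 0 to 2 for the difference and 0 to 5 between the wild types, the highest each time without wild type 3. In one fit of all 12 cortices, 1 of the 8 was called in *Nova2-/-*. Between the wild types, 3 were called with no filter, *Slit1* (-0.55, adjusted p = 0.0266), *Srgap1* (-0.47, adjusted p = 0.0361) and *Srgap3* (-0.53, adjusted p = 0.0337), and the same 3 by DESeq2. There DESeq2 called 8.37% of all genes, and the share with no filter is not given here. DESeq2 called 1 for the difference. Over all genes, calls in *Nova2-/-* numbered 166, against 41 at a log2 fold change of at least 1, 846 by DESeq2, 1334 in one fit of all 12 cortices and 7 to 1433 with each mouse left out. In *Nova1-/-* they numbered 2, against 1 with at least 10 counts in every sample, 34 by DESeq2 and 1 to 10 with each mouse left out. For the difference they numbered 296, against 113 at a log2 fold change of at least 1, 851 by DESeq2 and 113 to 1005 with each mouse left out. Between the wild types they numbered 483, against 103 at a log2 fold change of at least 1, 1333 by DESeq2 and 3 to 3561 with each mouse left out. With an absolute *Δ*I of at least 0.2, 0 of the 5 entries instead of 1 passed in *Nova1-/-* midbrain and hindbrain. The share of all events at that limit is not given here. The causes were not tested. The replicate numbers were not taken to pair *Nova2-/-* mice with wild types, since the correlations of same-numbered mice were 0.110, 0.00897 and 0.168 and wild type 1 correlated best with *Nova2-/-* mouse 2 (0.118). With the replicate block, 0 of the 8 and 220 of all genes were called. For *Nova1-/-* and for the wild types, no paired analysis was possible because the groups compared share fewer than 2 numbers, and no block was fitted for the difference.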

Other observations

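Markers of other cell types were called in few cases. Between the wild types, *Csf1r* of the 6 microglia markers was lower in wild types 1 to 3 than in wild types 4 to 6 (log2 difference = -0.58, adjusted p = 0.0392), and its change in *Nova2-/-* was higher than that in *Nova1-/-* (0.71, adjusted p = 0.0218). *Neurod2* of the cortical neuron markers (0.56, adjusted p = 0.0226) and *Dlx1* of the interneuron markers (0.54, adjusted p = 0.0232) were higher in wild types 1 to 3. In either knockout against its own wild types, 0 of the markers of cortical progenitors, interneurons, microglia, choroid plexus, thalamus, oligodendrocyte lineage and blood had an adjusted p below 0.05 in edgeR. Of a single list, at most 2 markers in *Nova2-/-* and 3 in *Nova1-/-* had an unadjusted p below 0.05, and DESeq2 called 1 progenitor and 1 microglia marker in *Nova2-/-* and 0 in *Nova1-/-*. Some lists spread widely within a group, which limits such tests. Choroid plexus markers summed to 100 to 1506 CPM in *Nova2-/-* and 109 to 922 CPM in *Nova1-/-*. Blood markers summed to 102 CPM in *Nova2-/-* mouse 3, against 32.3 and 45.8 CPM in mice 1 and 2. Their part in the values of the 8 genes was not tested.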
